A study of Ovis aries with 8 samples.

Results

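The genes described here are those that carry the insulin signal in fat and those that bring glucose into the cell: the insulin receptor INSR, its docking proteins IRS1 and IRS2, the phosphoinositide 3-kinase subunit PIK3R1, the kinases PDPK1, AKT1, AKT2 and GSK3B, and the glucose transporters SLC2A4 (GLUT4) and SLC2A1 (GLUT1). They were chosen by name. Of the 10 genes, 7 were named by the array annotation, on 16 of the 24016 bovine probe sets tested, and no probe set carried the symbol IRS1, IRS2 or PDPK1 in the annotation used here, so these 3 genes were not analysed. Where a gene had several probe sets, the one with the highest mean intensity over the 8 arrays stands for it, and the others are given beside it. The array holds INSR on 5 probe sets, AKT2 and GSK3B on 3 each, AKT1 on 2, and PIK3R1, SLC2A4 and SLC2A1 on 1 each.

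Kidney fat, the perirenal depot, was compared between 4 NmatCpat lambs, which inherited the Callipyge mutation from the father, and 4 NmatNpat lambs, which carry normal alleles from both parents. All 8 were 12-week male lambs of Dorset, Suffolk and Rambouillet crosses from 1 research flock, with 1 array per lamb. Callipyge is a point mutation between DLK1 and MEG3 in an imprinted gene cluster, and NmatCpat animals develop heavily muscled hindquarters and little body fat. The study examined the fat depot to ask whether the mutation acts on tissues other than muscle.

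When insulin binds its receptor, the receptor phosphorylates IRS proteins, which recruit phosphoinositide 3-kinase to the plasma membrane. The lipid it makes draws PDPK1 and the AKT kinases there, and PDPK1 switches AKT on. In adipocytes AKT2 is the form chiefly tied to glucose uptake: it phosphorylates TBC1D4, which releases vesicles that carry SLC2A4 to the cell surface, and it inactivates GSK3B, a brake on glycogen synthesis. Much of this control is exerted on the proteins, by phosphorylation and by movement, which an array of transcripts does not read.

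Levels are log2 intensities after quantile normalization over the 8 arrays, and differences are NmatCpat minus NmatNpat on that log2 scale, with the 95% interval from limma. The oligonucleotides of a probe set follow cattle sequence, so its brightness depends on how well sheep transcripts bind and does not rank 1 gene against another. Brightness does set the error. With the probe sets in 4 equal classes of mean level, the median SD within a genotype was 1.07 in the dimmest class, then 0.68, 0.35 and 0.23 in the brightest. A probe set was called where limma's P was at most 0.05 and the fold change exceeded 1.5, which is 0.58 on the log2 scale. With 4 lambs against 4 the smallest p of the two-sided exact permutation test over the 70 arrangements was 0.0286.

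ADIPOQ, the adipocyte hormone adiponectin, was bright on all 8 arrays, at 13.0 to 13.3 in NmatCpat lambs, against 12.8 to 13.2 in NmatNpat lambs. Not all adipocyte markers were as bright: LEP and RETN had mean levels of 4.92 and 4.52. The summed intensity of 19 adipocyte markers lay between 58042 and 65187 in NmatCpat lambs, against 57980 to 61250 in NmatNpat lambs, and none of the 19 lay in the dimmest class. CD36 and FABP4, with mean levels of 13.8 and 13.7, weigh most in this sum. Of the 19, 13 were higher in NmatCpat lambs and 6 lower. RBP4, singled out after its values were seen, differed by 0.54 without overlap (adjusted p = 0.983 by limma). Summed over 14 neuron markers the intensity was 2587 to 3148 in NmatCpat lambs, against 2403 to 2652 in 3 NmatNpat lambs and 27914 in NmatNpat animal 1. Outside that lamb CHGA, with a mean level of 11.2, weighs most in this sum. Of the 14, 12 were lower in NmatCpat lambs and 2 higher, and 1 was called, ELAVL4 in the dimmest class (-4.39), against 3.93% of all probe sets. NmatNpat animal 3 read 6.09 on NEFL and 6.74 on STMN2, above all NmatCpat lambs, but 3.95 on TH, within their range. Macrophage markers varied within both genotypes, with sums between 1748 and 4565 in NmatCpat lambs, against 1678 to 4317 in NmatNpat lambs. Summed over 16 skeletal muscle markers the intensity was 4663 to 6530 in NmatCpat lambs, against 5035 to 7602 in NmatNpat lambs. Of the 16, 12 were higher in NmatCpat lambs and 4 lower. Among the lower were the bright MYH7 (-0.30) and CKM (-0.39), which weigh most in the sum. Within this list the markers were not alike: MYL2, a myosin light chain singled out after its values were seen, read 7.03 in NmatCpat animal 4 and at most 3.63 on the other arrays, whereas CKM, the muscle creatine kinase, was lowest in that lamb, at 9.22. NmatCpat animal 4 was also the highest of the 8 lambs on MYL1, ACTA1, MB, TNNC1, TNNC2, TNNI2, TNNT1, MYH1 and ATP2A1. On CKM, MYH7, TNNT3, ACTN2, DES and PYGM it was not, and MYH7 was the brightest of the list. Many differences are therefore also given without single lambs.

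None of the 7 genes was called on its brightest probe set, and none of the 16 probe sets was called, where 3.93% of all probe sets were. On the brightest probe sets 4 genes lay above 0 and 3 below, with a median difference of 0.06 against 0.005 over all probe sets. Over the 16 probe sets 7 lay above and 9 below, with a median of -0.02. One of the 16, on AKT2, had a limma P of at most 0.05, against 4.66% of all probe sets, and the same one was alone in having genotypes that did not overlap, against 2.74% of all probe sets. The adjusted p of the 16 was 0.983 or higher (limma, Benjamini-Hochberg over 24016), and 0 of 24016 probe sets reached an adjusted p under 0.05, while 1118 had an unadjusted P of at most 0.05. For 5 of the 7 genes the 95% interval lay within a 2-fold change in either direction; the exceptions were INSR, by a narrow margin, and SLC2A4.

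**Figure D1:**
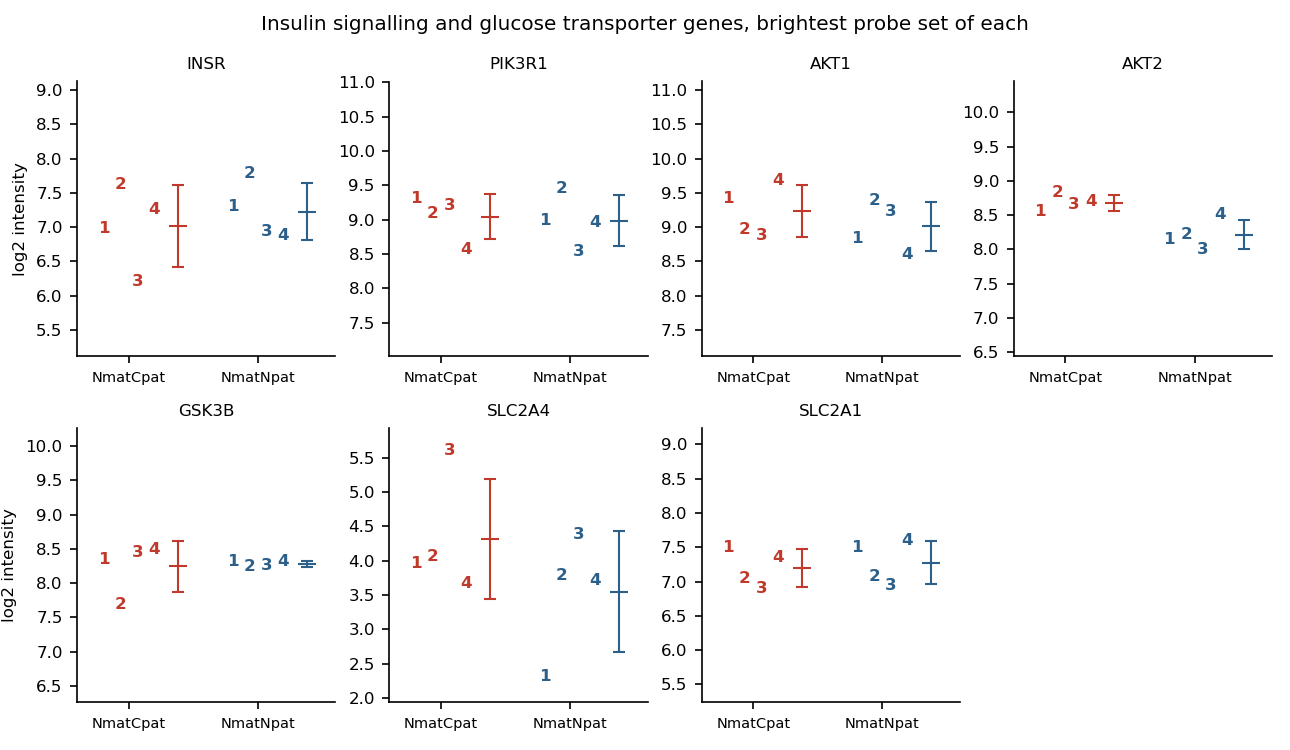
Log2 intensity of the brightest probe set of each of the 7 genes, NmatCpat in red and NmatNpat in blue, with each digit an animal number and the bar the mean ± SD (n = 4). Each panel spans the same number of log2 units; AKT2 is the only panel without overlap, with 8.55 to 8.83 in NmatCpat lambs and 8.0 to 8.50 in NmatNpat lambs.

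INSR, the receptor tyrosine kinase at the head of the pathway, read 6.98, 7.63, 6.21 and 7.25 in NmatCpat animals 1 to 4 on its brightest probe set, Bt.28461.2.S1_a_at, against 7.30, 7.79, 6.94 and 6.88 in NmatNpat animals 1 to 4. The genotypes overlapped over most of their range, and NmatCpat animal 3 was the lowest of the 8 lambs. The means were 7.02 ± 0.60 in NmatCpat and 7.23 ± 0.42 in NmatNpat lambs (SD, n = 4 each), a difference of -0.21 (95% interval -1.01 to 0.59; two-sided exact permutation test, p = 0.60). With single lambs left out the difference ran from -0.41, without NmatCpat animal 2, to 0.06, without NmatCpat animal 3.

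The other INSR probe sets also had differences below 0, all with overlap. Bt.28461.1.S1_a_at, the next in brightness and less variable, read 6.59, 7.12, 6.71 and 6.81 in NmatCpat lambs, against 6.95, 7.55, 6.68 and 6.87 in NmatNpat lambs. Its difference was -0.20 (95% interval -0.74 to 0.34; exact permutation p = 0.46), and -0.02 without NmatNpat animal 2. The remaining 3 lay in a dimmer class, with differences of -0.41 on Bt.28461.1.S1_at, -0.99 on Bt.28461.1.A1_at and -0.21 on Bt.28461.1.A1_a_at. The largest of these came from 5.92, 3.73, 5.56 and 5.45 in NmatCpat lambs, against 5.23, 6.31, 6.70 and 6.37 in NmatNpat lambs (95% interval -2.21 to 0.23; exact permutation p = 0.11). It was -0.51 without NmatCpat animal 2 and -1.30 without NmatNpat animal 1, where it passed both thresholds, though without both NmatNpat animal 1 and NmatCpat animal 4 it was -1.40 and did not pass. With single lambs left out the differences of Bt.28461.1.S1_at ran from -0.75 to -0.04, at -0.13 without NmatNpat animal 1, and those of Bt.28461.1.A1_a_at from -0.64 to 0.40. The same sign on 5 probe sets is not 5 observations, since they read the same lambs and the annotation gives 4 of them the same source sequence. They did not order the lambs alike either: over the 8 lambs the brightest probe set correlated with the others at r between -0.30 and 0.76, given as a description, and NmatCpat animal 2 was the highest NmatCpat lamb on 4 of the 5 and the lowest on the other.

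**Figure D2:**
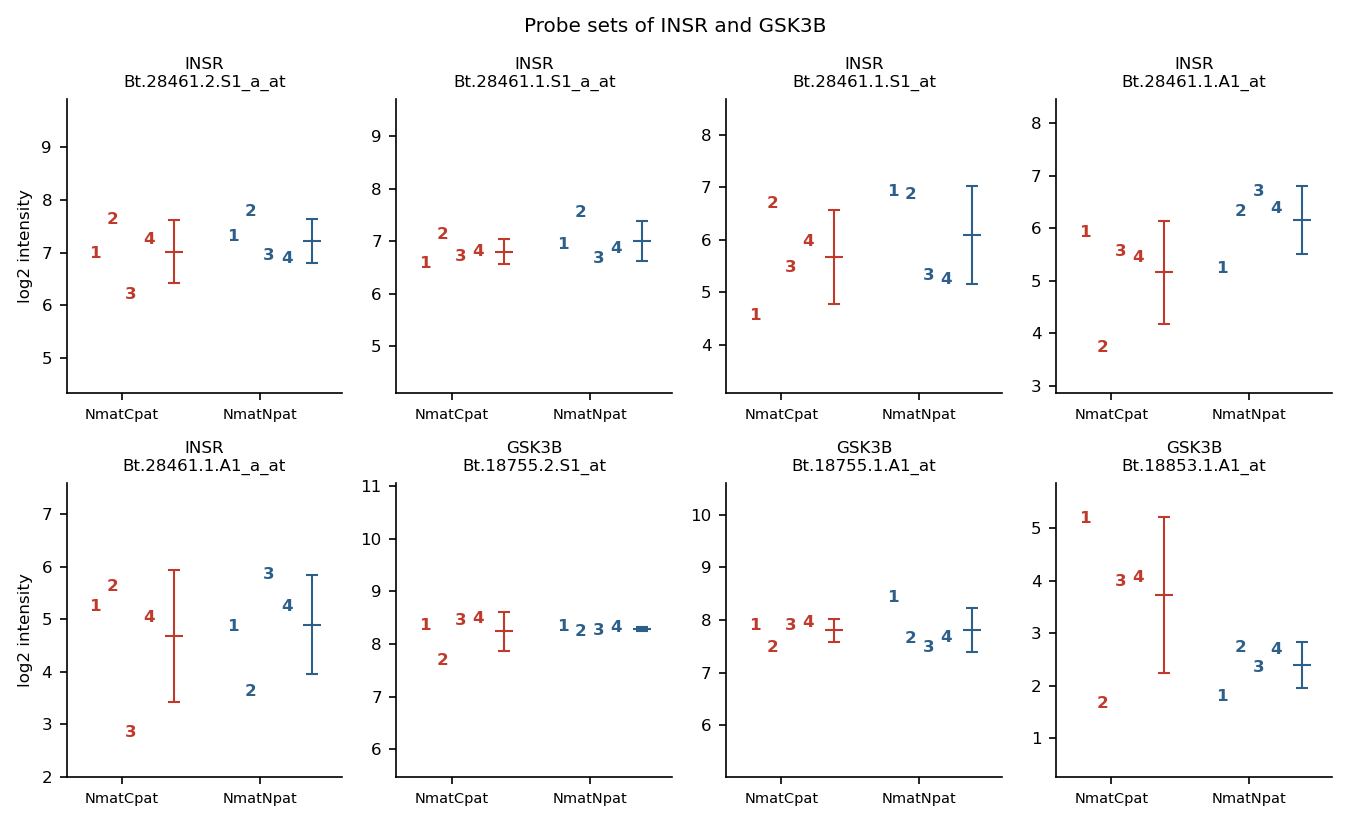
Log2 intensity of the 5 INSR and 3 GSK3B probe sets, NmatCpat in red and NmatNpat in blue, digits marking animal numbers and bars the mean ± SD (n = 4). All panels span the same number of log2 units; the spread is widest on the dim probe sets, and NmatCpat animal 2 is the lowest NmatCpat lamb on all 3 GSK3B probe sets.

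PIK3R1 encodes the regulatory subunit that brings phosphoinositide 3-kinase to phosphorylated IRS proteins. It read 9.31, 9.09, 9.20 and 8.57 in NmatCpat lambs, against 8.98, 9.45, 8.54 and 8.96 in NmatNpat lambs, on the single bright probe set Bt.7236.1.S1_at. The ranges nearly coincided. The means were 9.04 ± 0.33 in NmatCpat and 8.98 ± 0.37 in NmatNpat lambs (SD, n = 4 each), and the difference was 0.06 (95% interval -0.53 to 0.65; exact permutation p = 0.83). It was 0.21 without NmatCpat animal 4 and -0.09 without NmatNpat animal 3.

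AKT2 had 3 probe sets with unequal differences. On the brightest, Bt.5988.1.S1_at, it read 8.55, 8.83, 8.65 and 8.69 in NmatCpat lambs, against 8.14, 8.21, 8.0 and 8.50 in NmatNpat lambs. Every NmatCpat lamb was above every NmatNpat lamb, although NmatNpat animal 4 came within 0.043 of the lowest of them. The means were 8.68 ± 0.12 in NmatCpat and 8.22 ± 0.21 in NmatNpat lambs (SD, n = 4 each). The difference of 0.47 (95% interval 0.07 to 0.86), or 1.38-fold, had the smallest p that the exact permutation test allows, 0.0286. By limma its P was 0.026 and its adjusted p 0.983, 545 probe sets on the array had a smaller P, and the fold change was short of 1.5. In whole tissue, fewer cells of a type and less RNA per cell cannot be told apart, for AKT2 and for every gene below.

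The other AKT2 probe sets did not carry this separation. Bt.6403.1.A1_at, in the same brightness class, read 7.99, 8.47, 7.98 and 7.93 in NmatCpat lambs, against 8.09, 8.30, 7.79 and 7.84 in NmatNpat lambs. Its difference was 0.09 (95% interval -0.38 to 0.55; exact permutation p = 0.60), and it was -0.04 without NmatCpat animal 2, whose 8.47 stood above the other 3, and 0.17 without both NmatNpat animal 1 and NmatCpat animal 4. Bt.27965.2.S1_a_at read 5.81, 6.45, 6.06 and 5.52 in NmatCpat lambs, against 5.38, 6.18, 6.13 and 6.15 in NmatNpat lambs. Here the means were 5.96 in both genotypes, and the difference was 0.0013 (95% interval -0.64 to 0.64; exact permutation p = 1.0), or -0.19 without NmatNpat animal 1 and 0.15 without NmatCpat animal 4. The mean of all 3 probe sets differed by 0.19.

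Whether the probe sets differ from each other was tested on the difference between probe sets within each lamb. Bt.5988.1.S1_at minus Bt.6403.1.A1_at was 0.56, 0.36, 0.67 and 0.76 in NmatCpat lambs, against 0.06, -0.09, 0.21 and 0.66 in NmatNpat lambs, which overlapped through NmatNpat animal 4. The genotype difference of these values was 0.38 (exact permutation p = 0.086, adjusted p = 0.26 over the 3 pairs). For Bt.5988.1.S1_at minus Bt.27965.2.S1_a_at it was 0.46 (exact permutation p = 0.17, adjusted p = 0.26), and for the remaining pair 0.09 (p = 0.74, exact permutation, adjusted p = 0.74), or 0.31 without NmatNpat animal 1. None of the 3 differences between probe sets passed the test with 8 lambs. With single lambs left out the first of them ran from 0.28, without NmatNpat animal 2 (exact permutation p = 0.20), to 0.53, without NmatNpat animal 4. That lamb was the one through which the genotypes overlapped. Leaving it out removed the overlap. The exact permutation p of 0.0286 that followed, not adjusted over the pairs, was fixed by that choice and adds no support.

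Across the 8 lambs the 3 AKT2 probe sets were weakly related. Pearson's r was 0.30 between the brightest and Bt.6403.1.A1_at (permutation p = 0.47, exact), 0.20 between the brightest and Bt.27965.2.S1_a_at (p = 0.63) and 0.36 for the other pair (p = 0.38), with adjusted p = 0.63 for all 3 relations. Spearman's rho was 0.33, 0.17 and 0.26 in the same order (exact permutation p = 0.43, 0.70 and 0.54, adjusted p = 0.70 for all 3). Without the 2 lambs farthest from the median, r was 0.05, -0.02 and -0.73. NmatCpat animal 2 was the highest NmatCpat lamb on all 3.

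**Figure D3:**
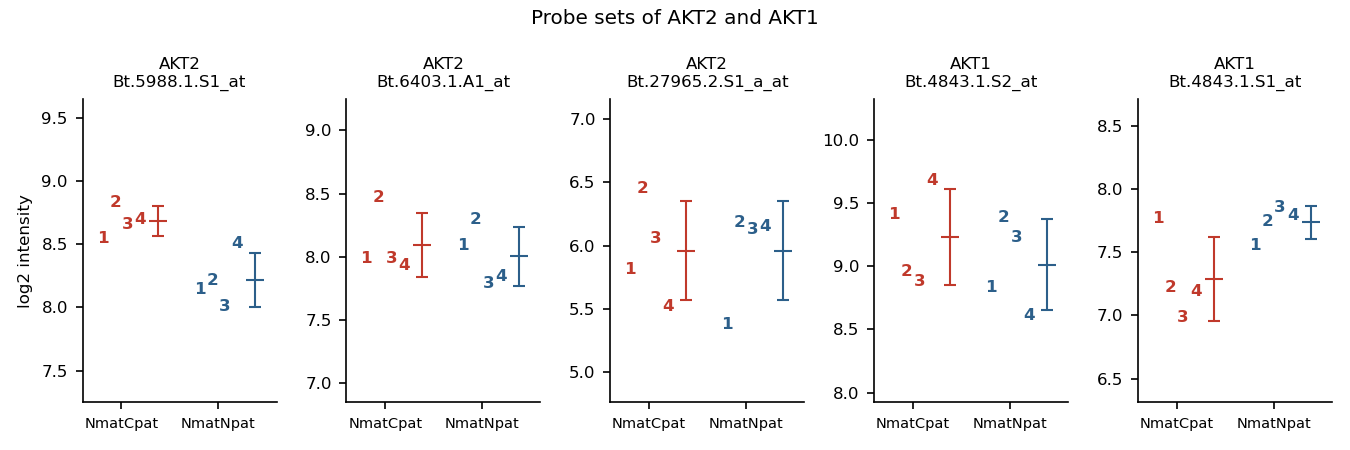
Log2 intensity of the 3 AKT2 and 2 AKT1 probe sets, NmatCpat in red and NmatNpat in blue, digits marking animal numbers and bars the mean ± SD (n = 4), with the same number of log2 units in each panel. The genotypes are apart on AKT2 Bt.5988.1.S1_at (difference 0.47) and overlap on the other AKT2 probe sets (0.09 and 0.0013), while the AKT1 probe sets differ by 0.22 and -0.45.

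AKT1, the form of the kinase more widely tied to growth and survival, had 2 probe sets with differences of opposite sign. Bt.4843.1.S2_at, the brighter, read 9.41, 8.96, 8.88 and 9.68 in NmatCpat lambs, against 8.83, 9.39, 9.23 and 8.61 in NmatNpat lambs, with overlap. The means were 9.23 ± 0.38 in NmatCpat and 9.01 ± 0.36 in NmatNpat lambs (SD, n = 4 each), a difference of 0.22 (95% interval -0.39 to 0.83; exact permutation p = 0.37). It rested on single lambs: it was 0.07 without NmatCpat animal 4, 0.08 without NmatNpat animal 4, and 0.0081 without both NmatNpat animal 1 and NmatCpat animal 4. Bt.4843.1.S1_at read 7.76, 7.22, 6.98 and 7.19 in NmatCpat lambs, against 7.55, 7.74, 7.86 and 7.79 in NmatNpat lambs. On it 3 NmatCpat lambs lay below all NmatNpat lambs and NmatCpat animal 1 among them, for a difference of -0.45 (95% interval -0.92 to 0.03; exact permutation p = 0.086). With single lambs left out that difference ran from -0.34, without NmatCpat animal 3, to -0.61, without NmatCpat animal 1, where it passed both thresholds.

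The brighter AKT1 probe set minus the dimmer one was 1.65, 1.74, 1.90 and 2.49 in NmatCpat lambs, against 1.28, 1.64, 1.37 and 0.82 in NmatNpat lambs. These values just failed to overlap, and their means differed by 0.67. The pair was singled out after its values were seen, so this is a description with no test. In the sheep assembly ARS-UI_Ramb_v3.0 AKT1 is the only one of the 10 genes on the chromosome that carries DLK1, with 47 protein-coding genes between them.

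GSK3B, the kinase that AKT inactivates, had 2 bright probe sets with differences near 0. On the brightest, Bt.18755.2.S1_at, it read 8.35, 7.69, 8.44 and 8.49 in NmatCpat lambs, against 8.32, 8.24, 8.25 and 8.31 in NmatNpat lambs. The NmatNpat lambs lay within 0.085 of each other, and 3 NmatCpat lambs were slightly above them and NmatCpat animal 2 well below. The means were 8.24 ± 0.37 in NmatCpat and 8.28 ± 0.04 in NmatNpat lambs (SD, n = 4 each), and the difference was -0.04 (95% interval -0.52 to 0.45). With single lambs left out it ran from -0.12, without NmatCpat animal 4, to 0.15, without NmatCpat animal 2.

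Bt.18755.1.A1_at read 7.89, 7.48, 7.89 and 7.96 in NmatCpat lambs, against 8.43, 7.64, 7.48 and 7.68 in NmatNpat lambs, a difference of -0.002 (95% interval -0.57 to 0.57). Without NmatNpat animal 1, the highest of the 8, it was 0.21, and without NmatNpat animal 3 it was -0.11. The third GSK3B probe set, Bt.18853.1.A1_at, lay in the dimmest class and read 5.19, 1.66, 3.97 and 4.06 in NmatCpat lambs, against 1.80, 2.73, 2.34 and 2.69 in NmatNpat lambs. Here 3 NmatCpat lambs were above all NmatNpat lambs and NmatCpat animal 2 below them all. The difference of 1.33 was the largest of the 16 and had the widest interval but 1, -0.26 to 2.91 (exact permutation p = 0.14). It was 0.85 without NmatCpat animal 1, 2.0 and past both thresholds without NmatCpat animal 2 (adjusted p = 0.73 by limma), and 0.58 when 16 was added to every intensity before the logarithm, which damps dim probe sets.

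SLC2A4, the transporter that insulin moves to the surface of adipocytes and muscle cells, was read by 1 probe set in the dimmest class, Bt.4391.1.S2_at, with deposited intensities of 5.2 to 47.5. It read 3.95, 4.06, 5.60 and 3.66 in NmatCpat lambs, against 2.31, 3.79, 4.38 and 3.70 in NmatNpat lambs. NmatCpat animal 3 was the highest and NmatNpat animal 1 the lowest, and the other 6 lambs lay between 3.66 and 4.38. The means were 4.32 ± 0.87 in NmatCpat and 3.55 ± 0.88 in NmatNpat lambs (SD, n = 4 each), a difference of 0.77 (95% interval -0.51 to 2.06; exact permutation p = 0.37). Without NmatCpat animal 3 the difference was 0.34, and without NmatNpat animal 1, the lamb with the highest neuron sum, 0.36. Without both NmatNpat animal 1 and NmatCpat animal 4 it was 0.58. The part of the neuron transcripts in this value was not tested.

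SLC2A1, the transporter that supplies most cells with glucose without insulin, was more evenly read. On Bt.4646.1.S1_at it was 7.50, 7.05, 6.90 and 7.35 in NmatCpat lambs, against 7.49, 7.07, 6.94 and 7.60 in NmatNpat lambs. Both genotypes spanned nearly the same values. The means were 7.20 ± 0.27 in NmatCpat and 7.28 ± 0.32 in NmatNpat lambs (SD, n = 4 each), and the difference was -0.08 (95% interval -0.60 to 0.45; exact permutation p = 0.63). With single lambs left out it stayed between -0.19 and 0.03. The interval of SLC2A1 thus excluded a 2-fold change of its transcript in either direction, whereas that of SLC2A4 reached past 4-fold higher.

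**Figure D4:**
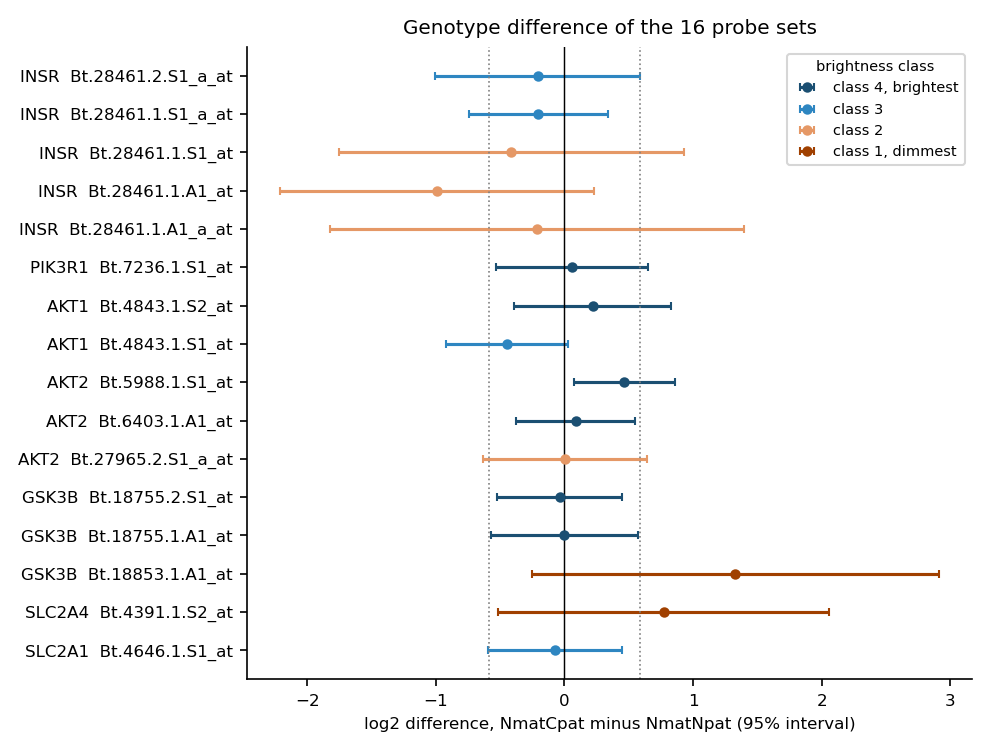
Log2 difference, NmatCpat minus NmatNpat, of the 16 probe sets (points) with the 95% interval from limma (lines), coloured by class of mean level from the brightest (class 4) to the dimmest (class 1); dotted lines mark 1.5-fold. AKT2 Bt.5988.1.S1_at, at 0.47, is the only interval that leaves out 0, and the widest intervals belong to dim probe sets of INSR, GSK3B and SLC2A4.

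The pathway around these genes was described with 131 further genes in 8 groups by role, of which 92 had a named probe set. On their brightest probe sets 43 lay above 0 and 49 below, with a median difference of -0.01 against 0.005 over the 9155 genes of the array. None was called, against 3.93% of all probe sets and, on the brightest probe sets of the 9155 genes, 127 called higher and 139 lower. A limma P of at most 0.05 was found for 1 of the 92, against 4.66% of all probe sets and 347 of the 9155 genes. In 3 of the 92, or 3.26%, the genotypes did not overlap, a share near the 2.74% of all probe sets. The intervals of 71 of the 92 lay within a 2-fold change either way.

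Among receptors and ligands 5 of 6 lay above 0, with a median of 0.29. ENPP1, a membrane enzyme that binds INSR and restrains it, had the smallest P of this group. It read 9.04, 9.29, 9.87 and 9.02 in NmatCpat lambs, against 8.73, 8.65, 9.20 and 8.74 in NmatNpat lambs, a difference of 0.48 (95% interval -0.08 to 1.04; exact permutation p = 0.086), or 0.29 without NmatCpat animal 3. IGF1R and IGF2R, the receptors of the insulin-like growth factors, differed by 0.34 and 0.31, and their ligands IGF1 and IGF2 by 0.26 and 0.10. These 4 were named after their values were seen, like all pathway genes below other than CAV2, SGK3, PPP2R5C, TBC1D4, RPS6KB1, KIF3A and SLC5A2.

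The 8 adaptors had a median of 0.05, with 5 above 0, and all 8 intervals lay within 2-fold. CAV2, a caveolin of the plasma membrane pits in which INSR is found, had the smallest P and differed by 0.28 (95% interval -0.28 to 0.83), or 0.15 without NmatNpat animal 2 and 0.17 without NmatNpat animal 1. GRB2 differed by 0.14 and SHC1, which links receptors to the RAS pathway, by 0.05. Among phosphoinositide 3-kinase subunits and the kinases downstream of its lipid, 4 of 10 lay above 0, with a median of -0.04. PIK3CA, the catalytic partner of PIK3R1, differed by -0.06 (95% interval -0.45 to 0.33). SGK3, a relative of AKT, had the smallest P of the 10 with 0.50 (95% interval -0.25 to 1.24), and it was 0.29 without NmatNpat animal 1, 0.23 without both NmatNpat animal 1 and NmatCpat animal 4, and 0.79 and called without NmatNpat animal 2.

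The brakes on the pathway, phosphatases and inhibitors, divided into 7 above and 7 below 0. PPP2R5C, a regulatory subunit of the phosphatase PP2A, was the pathway gene with a limma P of at most 0.05. It read 9.83, 9.74, 10.21 and 10.01 in NmatCpat lambs, against 9.60, 9.40, 9.72 and 9.41 in NmatNpat lambs. The genotypes did not overlap but came within 0.022, and the difference was 0.41 (95% interval 0.01 to 0.81; exact permutation p = 0.0286, the smallest it can give). Its adjusted p by limma was 0.983 and its fold change 1.33. PPP2R5C also lies on the DLK1 chromosome, with 3 protein-coding genes between them, none with a named probe set. PTPN1, which dephosphorylates INSR, differed by 0.02, GRB10, an inhibitor of the receptor, by -0.01, and SOCS3, which marks IRS proteins for breakdown, by 0.38 (95% interval -0.52 to 1.28). PHLPP2, a phosphatase of AKT read by a probe set in the dimmest class, differed by -1.01 with an interval of -2.95 to 0.93, and was called without NmatNpat animal 4 (-1.71).

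Of 10 targets of AKT 6 lay above 0, with a median of 0.08. TBC1D4, the target that holds SLC2A4 vesicles back until AKT phosphorylates it, differed by 0.30 on its brightest probe set (95% interval -0.21 to 0.80), or 0.19 without NmatCpat animal 3 and 0.45 without NmatCpat animal 4. On its other probe set, Bt.10070.1.S1_at, it read 6.42, 6.23, 5.85 and 6.84 in NmatCpat lambs, against 6.16, 5.65, 5.44 and 5.60 in NmatNpat lambs. That difference, 0.62 (95% interval 0.02 to 1.23; adjusted p = 0.983 by limma), was the only one of the 140 probe sets of the 92 genes to be called, or 0.714%, against 3.93% of all probe sets, and its genotypes overlapped. TBC1D1, its muscle relative, differed by 0.16, GSK3A, the partner of GSK3B, by 0.01, and ACLY, the citrate-cleaving enzyme of fat synthesis that AKT phosphorylates, by 0.26.

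In the mTOR branch 8 of 12 lay below 0, with a median of -0.08. RPS6KB1, the kinase that phosphorylates ribosomal protein S6, read 8.54, 8.63, 8.48 and 8.61 in NmatCpat lambs, against 8.83, 8.88, 8.64 and 8.89 in NmatNpat lambs. Its genotypes did not overlap, by a margin of 0.0069, and the difference was -0.25 (95% interval -0.58 to 0.09). The exact permutation p was 0.0286, the smallest it can give, while by limma its P was 0.13 and its adjusted p 0.983. Its other probe set differed by 0.26 with overlap, and the difference between these probe sets was not tested. RPTOR and RHEB, which act on mTOR, differed by -0.23 and -0.05.

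Of 23 genes of SLC2A4 vesicle traffic 10 lay above 0 and 13 below, with a median of -0.04. KIF3A, a motor protein subunit, had the smallest P of the group and differed by 0.65. It read 6.14 to 6.26 in the 4 NmatCpat lambs, against 6.38, 5.02, 5.47 and 5.37 in NmatNpat lambs, so that NmatNpat animal 1 was the highest of all (95% interval -0.01 to 1.32; exact permutation p = 0.14). Without NmatNpat animal 1 the difference was 0.93 and passed both thresholds (adjusted p = 0.75 by limma). EXOC3, a subunit of the exocyst that tethers vesicles, read 2.69, 5.29, 3.08 and 4.70 in NmatCpat lambs, against 4.85, 5.44, 5.38 and 5.26 in NmatNpat lambs, a difference of -1.29 (95% interval -2.62 to 0.04; exact permutation p = 0.086). Its probe set was dim, with deposited intensities of 7.2 to 43.2. It passed both thresholds without NmatCpat animal 2 (-1.73, adjusted p = 0.965 by limma) and without NmatCpat animal 4 (-1.54, adjusted p = 0.996 by limma). TRIP10, an adaptor reported in insulin-stimulated traffic, differed by -0.32 (95% interval -0.71 to 0.07, adjusted p = 0.983 by limma). Its genotypes did not overlap, by a margin of 0.038. Of the proteins that fuse the vesicle with the plasma membrane, VAMP2 differed by -0.11, VAMP3 by -0.20, VAMP8 by 0.01, STX4 by 0.13, SNAP23 by 0.23 and STXBP3, which binds STX4, by 0.46, and all 6 intervals held 0.

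Other glucose transporters and hexokinases had the lowest median, -0.35, with 7 of 9 below 0, and only 1 of their 9 intervals lay within 2-fold. SLC5A2, a sodium-coupled transporter best known from the kidney, had the smallest P and differed by -0.60 (95% interval -1.26 to 0.07) on a probe set in the dimmest class, and it was -0.40 without NmatCpat animal 2, and -0.75 and called without NmatCpat animal 1 and without NmatNpat animal 3. SLC2A8 differed by -0.35 (95% interval -0.76 to 0.05; exact permutation p = 0.057), SLC2A5, a fructose transporter, by -0.44, and SLC2A3, the transporter of neurons, by 0.32. HK1, the hexokinase that traps glucose in most tissues, differed by -0.38 (95% interval -1.01 to 0.25). It read 9.43, 8.95, 9.81 and 9.46 in NmatCpat lambs, against 10.4, 9.52, 9.52 and 9.73 in NmatNpat lambs, with NmatNpat animal 1 the highest.

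**Figure D5:**
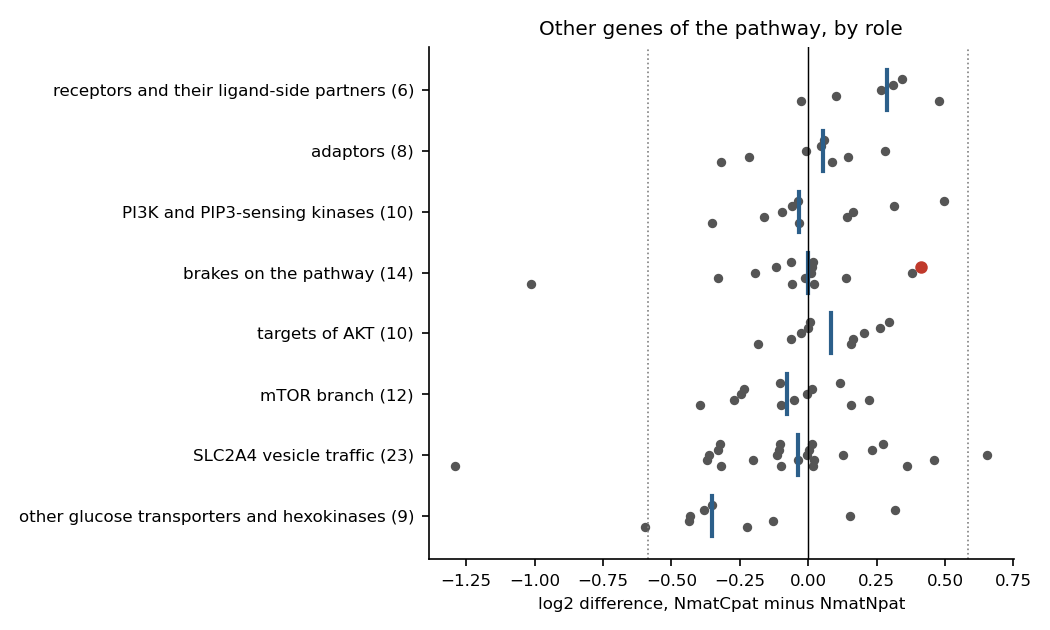
Log2 difference, NmatCpat minus NmatNpat, of 92 other genes of the pathway on their brightest probe sets (points), by role with the number of genes, and the median of each role (blue bar); dotted lines mark 1.5-fold and red marks a limma P of at most 0.05. Role medians lie between -0.35 for other glucose transporters and hexokinases and 0.29 for receptors, and PPP2R5C, at 0.41, is the only red point.

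The genes whose variation among lambs was most like that of INSR, AKT2 and SLC2A4 were taken from 7935 to 7937 brighter probe sets with a single symbol, with each genotype's mean removed. Over the 8 lambs INSR was most like RNF8 (r = 0.97), WDR19 (r = 0.97) and HINT1 (r = 0.96). AKT2 Bt.5988.1.S1_at was most like SMNDC1 (r = 0.96), EXOC1 (r = 0.94) and CXCL16 (r = 0.94), and SLC2A4 was most like ADNP (r = 0.97), CTSK (r = 0.97) and PLPP3 (r = 0.96). With 8 lambs and so many candidates, 28, 12 and 29 of them had r over 0.9 with INSR, AKT2 and SLC2A4, so these values are a description of the same 8 arrays. None of the 3 nearest genes was another of the 10.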

How the data were processed

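Total RNA of perirenal adipose tissue was hybridised to the Affymetrix Bovine Genome array, 1 array for each of 8 lambs. The authors pre-processed the images with MAS5 (version not given in the sources used here). The deposited intensity values, on a linear scale for 24128 probe sets, did not share quantiles between arrays, so log2 values were taken and quantile-normalized over the 8 arrays; 112 array controls were then left out. For the 24016 others limma 3.58.1 (R 4.3.3) estimated the genotype difference by lmFit and eBayes without covariates, and p-values were adjusted over all of them (Benjamini-Hochberg). For single genes a two-sided exact permutation test was added, with code checked against scipy 1.17.1. The number of arrays, 8, limits the precision.

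Symbols came from GEO's platform annotation, which can be old: 13292 probe sets had 1 symbol, 86 several and 10638 none. Sheep assembly ARS-UI_Ramb_v3.0 served for names and gene order only. The genes, lists and tests were chosen with earlier results of these data known. Named were all probe sets of the genes, the pathway gene with the smallest P in each role, those with P of at most 0.05, and the 3 probe sets most like INSR, AKT2 and SLC2A4; others named were chosen after their values were seen. The authors' own comparisons were not used. Animal numbers did not pair lambs across genotypes (correlations of deviations -0.01 to 0.18). Alternatives numbered 19: other variance models and normalizations, an offset of 16, filters on dim and on cross-binding probe sets, array weights, the mean of a gene's probe sets, a block for the animal number, leaving out each lamb, and, added after seeing the data, 2 arrays left out together. The scripts were tested on simulated data.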

Additional observations from a re-analysis of the deposited data

Results flagged for a closer look

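In 48 groups of 4 lambs, over 24 probe sets, 4 had a lamb farther from the others than Dixon's limit allows, and chance alone flags about 1 group in 20. On AKT2 Bt.6403.1.A1_at NmatCpat animal 2 read 8.47 and the nearest NmatCpat lamb 7.99. On AKT2 Bt.27965.2.S1_a_at NmatNpat animal 1 read 5.38 and the nearest NmatNpat lamb 6.13. On GSK3B Bt.18755.2.S1_at NmatCpat animal 2 read 7.69 against 8.35 in the nearest NmatCpat lamb. On GSK3B Bt.18755.1.A1_at NmatCpat animal 2 read 7.48 against 7.89 in the nearest NmatCpat lamb.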

How the results depend on the processing

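No brightest probe set of the 7 genes was called under any of the 19 alternatives. Of the 16 probe sets, 0 to 1 was called with a lamb left out: AKT1 Bt.4843.1.S1_at (-0.61) without NmatCpat animal 1, GSK3B Bt.18853.1.A1_at (2.0) without NmatCpat animal 2, and INSR Bt.28461.1.A1_at (-1.30) without NmatNpat animal 1. Over all 24016 probe sets 979 to 1052 were called with a lamb left out. AKT2 stayed above 0 in all 19, with the lowest value, 0.19, for the mean of all its probe sets. On Bt.5988.1.S1_at itself the difference was 0.40 to 0.56 with a lamb left out, at 0.44 without NmatNpat animal 1. An unadjusted limma P of at most 0.05 was kept in 11 of the 19. Over all probe sets the count of 943 became 626 without moderated variances and 244 above the median level, and 1124 with the animal number as a replicate block. The block cannot change a difference, since each animal number holds 1 lamb of each genotype. With it the limma P of AKT2 Bt.5988.1.S1_at was 0.052, against 0.026 in the main analysis, and no further probe set of the 7 genes was called. Calls at an adjusted p under 0.05 numbered 0 in the main analysis, 1 with the offset of 16, above the median level and with a trended robust variance, and 0 to 2 with a lamb left out (2 without NmatNpat animal 2). Pathway genes called were 2 with array weights, 1 each with median-centred arrays, the offset of 16, the replicate block and without both arrays (NmatNpat animal 1 and NmatCpat animal 4), and 0 to 2 with a lamb left out; they were EXOC3, KIF3A, PHLPP2, RPS6KB2, SGK3 and SLC5A2, none of which was called in the main analysis. Beside the 979 to 1052 of all 24016 probe sets called with a lamb left out, these pathway counts are not read as a result about the genes. The causes were not tested.

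Signs turned for several probe sets, not only those near 0. The main differences were 0.22 for AKT1, -0.25 for RPS6KB1 and -0.21 for INSR Bt.28461.1.A1_a_at. AKT2 Bt.27965.2.S1_a_at was -0.047 without both arrays, -0.050 with array weights, -0.0019 with median-centred arrays and -0.019 with cyclic loess, and GSK3B Bt.18755.1.A1_at 0.16 without both arrays, 0.054 with array weights and 0.012 with median-centred arrays. The mean of a gene's probe sets gave -0.11 for AKT1, 0.43 for GSK3B and 0.0052 for RPS6KB1. With a lamb left out, the ranges that crossed 0 were -0.19 to 0.15 for AKT2 Bt.27965.2.S1_a_at, -0.037 to 0.19 for AKT2 Bt.6403.1.A1_at, -0.11 to 0.21 for GSK3B Bt.18755.1.A1_at, -0.12 to 0.15 for GSK3B Bt.18755.2.S1_at, -0.64 to 0.40 for INSR Bt.28461.1.A1_a_at, -0.41 to 0.061 for INSR Bt.28461.2.S1_a_at, -0.093 to 0.22 for PIK3R1 and -0.19 to 0.031 for SLC2A1. For the AKT2 pairs they were 0.28 to 0.53, 0.31 to 0.64 and, between the dimmer probe sets, -0.040 to 0.31. The pairs have no value under other variance models, filters, the block or the mean of probe sets.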
